A study of Spodoptera frugiperda with 12 samples.

Results

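*ND2*, *ND3* and *ND6* are the 3 complex I genes that lie on the plus strand of the mitochondrial genome of the fall armyworm *Spodoptera frugiperda*, among 13 mitochondrial coding genes. N6-methyladenosine (m6A) is a methyl mark on adenosine in RNA, and an m6A peak is a stretch that the authors called as enriched after capture of RNA fragments with an antibody against the mark. The members described here were chosen by position, as every plus-strand peak of the mitochondrial sequence NC_027836.1 that overlaps 1 of these genes, and they are 30 of the 331440 peaks in the deposited lists. They are also 30 of 180 mitochondrial peaks and 30 of 112 mitochondrial peaks on the plus strand. *ND2* holds 12 of them, *ND3* 12 and *ND6* 6.

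The series compared pools of whole embryos collected at 2 h and at 24 h after the eggs were laid, from an insect colony kept in the laboratory on artificial diet. No genotype or treatment other than time is labelled. Of 12 samples in 4 groups of 3, the 6 captured samples (3 per time) each have a peak list, from 51157 to 58161 peaks long, and the 6 uncaptured inputs were not analysed here. The labels do not say whether replicates of a time stem from separate egg batches, so the spread behind each p-value may be technical. The depth behind each peak is unknown because the lists carry no counts of reads, and no expression value was at hand to check the stage or tissue against marker genes. RNA of all cells of the embryo was mixed, and fewer mitochondria, less transcript and fewer marked transcripts cannot be told apart in a peak list. Whether reads from nuclear copies of mitochondrial genes entered the lists was not tested.

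Complex I is the entry enzyme of the respiratory chain: it takes electrons from NADH, passes them to ubiquinone and pumps protons across the inner mitochondrial membrane. Most of its subunits are encoded in the nucleus, and the mitochondrial genome supplies core subunits of the membrane arm. In mammalian complex I the protein of *ND2* is an antiporter-like subunit of the proton-pumping arm, while those of *ND3* and *ND6* sit near the joint with the arm that oxidises NADH. Animal mitochondrial messengers are cut from long transcripts, often at the tRNA genes that lie between them, and receive poly(A) tails. An early embryo relies largely on mitochondria supplied with the egg.

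All 3 genes carried m6A peaks in every list, in an arrangement that did not vary in number. *ND2* and *ND3* had 2 peaks each and *ND6* had 1 in all 6 lists, so the number of peaks per list on the 3 genes was 5 at both times. Of the 13 mitochondrial coding genes 7 had the same number of peaks in all lists, and for the number of peaks 0% of the 13 had lists of 24 h that were all above, or all below, those of 2 h. No minus-strand peak overlapped the 3 genes in any list, but since the library kit is not described as marking strand, RNA of opposite strands cannot be told apart. No peak reached beyond the gene it lay on, and both edges of all 30 peaks, 60 of 60 edges, fell on multiples of 25 bases counted from the start of the gene. Edges are thus known to 25 bases, and a difference of 25 bases is the smallest that a list can show. All positions below on NC_027836.1 are those of the deposited lists counted from 1, and bases within a gene are counted 5' to 3' from its first base.

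**Figure D1:**
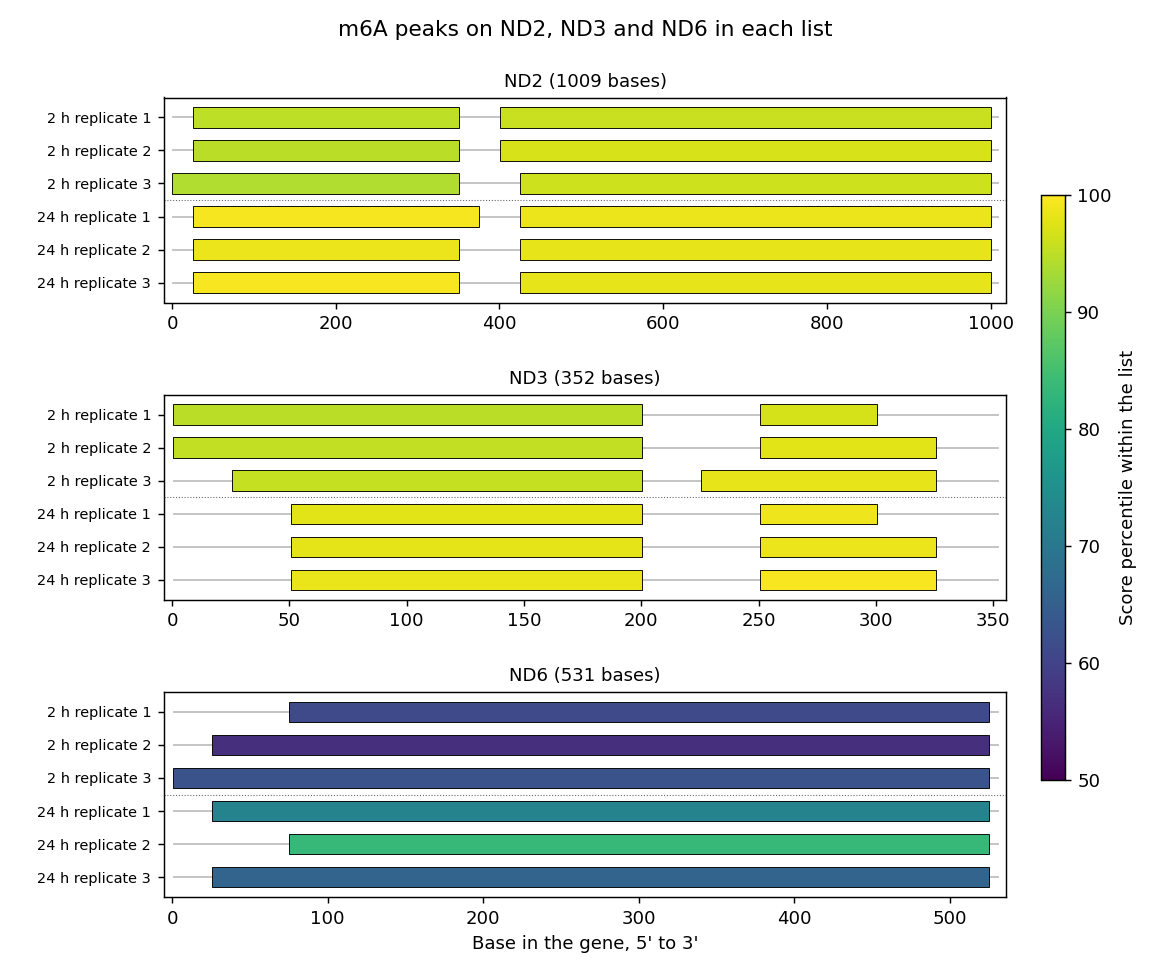
Peaks on *ND2*, *ND3* and *ND6* in each list (rows, 2 h above and 24 h below the dotted line) by base in the gene from 5' to 3' (horizontal axis), coloured by the percentile of the deposited score within the list. The 3' ends of the last *ND2* peak, the first *ND3* peak and the *ND6* peak stood at the same base in all 6 lists, and the first *ND3* peak began at base 51 in the 3 lists of 24 h and at base 1 or 26 in those of 2 h.

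*ND2*, 1009 bases long, was covered nearly from end to end by a 5' peak and a longer 3' peak. The 5' peak ran from base 26 to 350 (NC_027836.1, 273 to 597) in 4 lists, 2 of each time. It began at base 1 (position 248) in the third 2 h list, and it ended at base 375 (position 622) in the first 24 h list. The 3' peak ended at base 1000 (position 1247) in all 6 lists. It began at base 401 (position 648) in the first and second 2 h lists and at base 426 (position 673) in the third 2 h list and in all 3 lists of 24 h. Between the peaks lay an inner gap of 50 bases in the first and second 2 h lists and in the first 24 h list, and of 75 bases in the other lists. Bases 376 to 400 (25 bases, positions 623 to 647) were free of peaks in every list. So were the last 9 bases of the gene, which are fewer than 1 step of 25 bases. Of the 1009 bases, 900 (89.2%) were under a peak in all 6 lists, 75 in some lists and 34 (3.37%) in none.

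*ND3*, the shortest of the 3 genes at 352 bases, had the largest share of bases among the 3 that lay under a peak in only some lists. Its 3' peak was short: it ran from base 251 to 300 (NC_027836.1, 5817 to 5866) in the first list of each time, from base 251 to 325 (to position 5891) in the second 2 h list and the second and the third lists of 24 h, and from base 226 to 325 in the third 2 h list. Its 5' peak ended at base 200 (position 5766) in all 6 lists. It began at base 1 (position 5567) in the first and second 2 h lists, at base 26 (position 5592) in the third 2 h list, and at base 51 (position 5617) in all 3 lists of 24 h. The 5' peak was thus 200, 200 and 175 bases long at 2 h and 150 bases long in each list of 24 h. The lengths of the times did not overlap (191.7 ± 14.4 bases at 2 h against 150.0 ± 0 at 24 h, SD, n = 3 lists per time, p = 0.1 in a two-sided exact permutation test, the smallest that 3 lists against 3 can give). Bases 201 to 225 (positions 5767 to 5791) and the last 27 bases, 326 to 352, were free of peaks in every list. In all, 200 bases of *ND3* (56.8%) were under a peak in all 6 lists, 100 (28.4%) in 1 to 5 lists and 52 (14.8%) in none.

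*ND6*, 531 bases long, had 1 unbroken peak that ended at base 525 (NC_027836.1, 10532) in all 6 lists, and the last 6 bases were free of peaks. The peak began at base 1 (position 10008) in the third 2 h list. It began at base 26 (position 10033) in the second 2 h list and in the first and the third lists of 24 h. In the first 2 h list and the second 24 h list it began at base 76 (position 10083). Bases 76 to 525, 450 in number (84.7%), were under a peak in all 6 lists, and *ND6* had no gap inside the peak in any list.

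On each gene 1 peak had a 3' end that all lists shared, and no 5' edge was shared by all lists. The 30 peaks began at 12 different positions, 0 of them common to the 6 lists, and ended at 7, of which 3 were common to the 6. No pair of edges was identical in all lists: the 30 peaks made 14 different intervals, 5 of them in a single list. Among the peaks on the other 10 coding genes, 11 of 49 positions of 5' edges and 14 of 48 positions of 3' edges were shared by all 6 lists. On the 4 complex I genes of the minus strand (*ND1*, *ND4*, *ND4L* and *ND5*) the shared positions were 2 of 26 at 5' edges and 7 of 23 at 3' edges. These counts include edges at gene borders on the other genes as well. They are a description, and the difference between the genes was not tested.

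The first bases of the 3 genes were under peaks at 2 h in some lists and at 24 h in none. Base 1 was under a peak in 1 list of 2 h for *ND2*, in 2 for *ND3* and in 1 for *ND6*, which is 4 of 9 combinations of gene and list, against 0 of 9 at 24 h. Of the other 10 genes, 5, all on the plus strand, had base 1 under a peak in all 6 lists and 2 had it in none. Another 2 (*ND1* and *ND4L*) had it in more lists of 2 h than of 24 h, and 1 (*ND5*) in more lists of 24 h. These lie on the minus strand, where base 1 falls in a stretch shorter than a step of 25 bases (14 bases in *ND1*, 16 in *ND4L* and 21 in *ND5*). No other plus-strand gene differed between the times at base 1. Bases 26 to 50 of *ND3* (positions 5592 to 5616) were the only bases of the 3 genes with a peak in all 3 lists of 2 h and in none of 24 h, and no base had the opposite pattern. These 25 bases are 7.10% of *ND3* and 1.32% of the 1892 bases of the 3 genes. Over all 13 coding genes 1.02% of bases (114 of 11197, in 4 genes) had this pattern, so the share over the 3 genes was close to the background.

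The share of each gene under a peak followed these edges. In *ND2* it was 91.7% in all 3 lists of 2 h and in the first list of 24 h, and 89.2% in the other lists of 24 h. The lists of 2 h and 24 h shared a value, with means of 91.7% ± 0 and 90.0% ± 1.43 (SD, n = 3 lists per time, p = 0.4 in a two-sided exact permutation test, adjusted p = 0.743 over the 13 coding genes by Benjamini-Hochberg). *ND6* was covered to 84.7%, 94.2% and 98.9% at 2 h and to 94.2%, 84.7% and 94.2% at 24 h, so the times overlapped (92.6% ± 7.19 against 91.0% ± 5.44, SD, n = 3 lists per time, p = 1 in a two-sided exact permutation test). The sign of this difference was set by a single list: 24 h minus 2 h was -1.57 percentage points with all lists and 1.57 without the third 2 h list or without the second 24 h list.

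*ND3* was covered to 71.0%, 78.1% and 78.1% at 2 h and to 56.8%, 63.9% and 63.9% at 24 h, and the times did not overlap. Within a time its SD was 4.10 points at 2 h and at 24 h (n = 3 lists per time), below that of *ND6* (7.19 and 5.44). The difference of -14.2 percentage points had an exact two-sided permutation p of 0.1 and an adjusted p of 0.65 over the 13 genes, and it did not pass. Every 24 h list below every 2 h list was found in 2 of the 13 genes (15.4%), *ND3* and *ND5*. Mean coverage was higher at 24 h in none of the 13 genes and unchanged in some. It was lower in others too, such as *COX1* (-9.25 points), *ND5* (-8.19), *COX3* (-7.39) and *ND1* (-5.04). The difference in *ND3* lay in its 5' peak: in covered bases, the 5' peak accounted for 191.7 at 2 h and 150.0 at 24 h, and the 3' peak for 75 ± 25 and 66.7 ± 14.4 (SD, n = 3 lists per time, p = 1 in a two-sided exact permutation test). Over the 3 genes together, 85.9%, 89.9% and 91.2% of the 1892 bases were covered at 2 h and 85.9%, 83.2% and 85.9% at 24 h, so the lowest list of 2 h stood level with the highest of 24 h.

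**Figure D2:**
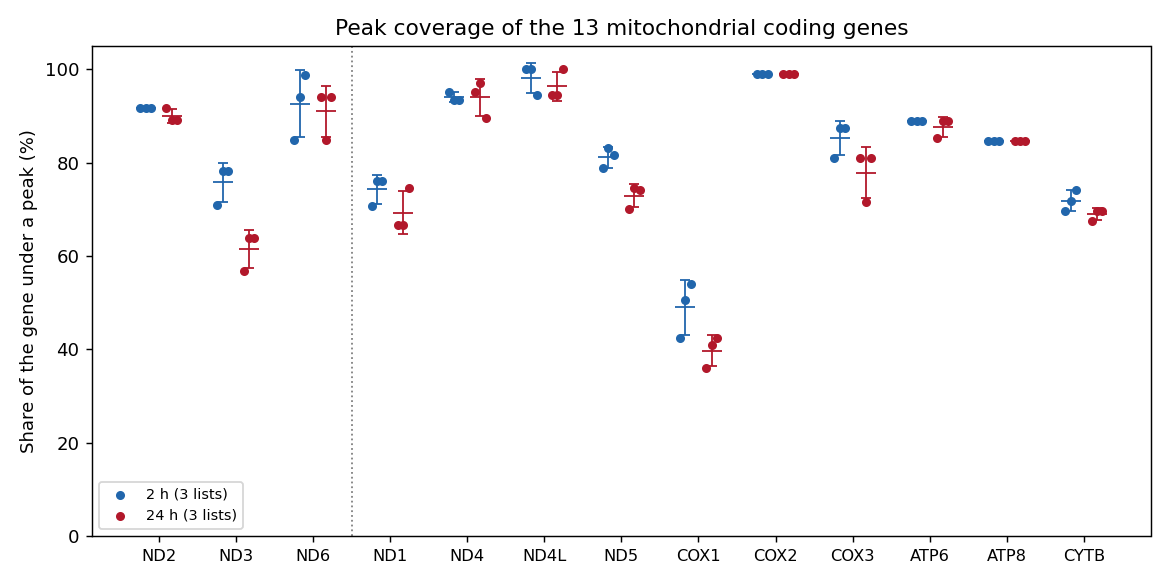
Share of each of the 13 mitochondrial coding genes under a peak (vertical axis, percent) at 2 h (blue) and 24 h (red), with points for the 3 lists of each time and bars for the mean and SD; the genes left of the dotted line are *ND2*, *ND3* and *ND6*. *ND3* stood at 71.0% to 78.1% at 2 h and 56.8% to 63.9% at 24 h, while *ND2* and *ND6* stood at 84.7% or more in every list.

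As a share of gene length, *ND3* had the least cover of the 3 genes in every list. It stood below *ND2*, with a difference of -22.2 ± 8.14 percentage points (SD, n = 6 lists, lower in 6 of 6, p = 0.03125 in an exact sign-flip test, two-sided, and adjusted p = 0.0469 over 6 comparisons between the genes). It stood below *ND6*, with a difference of -23.2 ± 8.97 points (SD, n = 6, lower in 6 of 6, p = 0.03125 in an exact sign-flip test, two-sided, and adjusted p = 0.0469). *ND2* and *ND6* were not separated, with a mean difference of -0.959 ± 5.50 points (SD, n = 6, *ND2* lower in 4 of 6 lists, p = 0.625 in an exact sign-flip test, two-sided, and adjusted p = 0.625), which became 0.288 without the third 2 h list. These shares depend on gene length: 25 bases are a larger part of *ND3* (352 bases) than of *ND2* (1009). *ND3* had fewer bases free of peaks than *ND2* in replicates 2 and 3 of 2 h (77 against 84). It had more in replicate 1 of 2 h (102 against 84). At 24 h it had more in each list (152 against 84, 127 against 109 and 127 against 109). It had more than *ND6* in every list. The p of 0.03125 is the smallest that a sign-flip test over 6 lists can give, and both times were pooled. By the summed absolute difference in coverage over the 6 lists, the gene most like *ND2* was *ATP6*, an ATP synthase subunit gene (15.2 points). The gene most like *ND3* was *ND1* (27.5 points), and the one most like *ND6* was *ND2* (28.5 points). Of the joint 1892 bases of the 3 genes, 81.9% were under a peak in all 6 lists and 4.86% in none, beside 69.4% and 17.7% of the other 10 coding genes. The complex I genes of the minus strand stood at 73.6% and 10.2%. Single genes varied widely: the share in all 6 lists was 56.8% in *ND3* and 89.2% in *ND2*, and among the other 10 it ran from 35.9% (*COX1*) to 99.0%.

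The deposited score, whose scale is not stated, ranks peaks within a list, and it is given here as the percentile of a peak among all peaks of its own list. By this measure the genes fell into a high pair and a lower member. The 4 peaks of *ND2* and *ND3* lay between the 94.1th and the 99.4th percentile in every list, and the *ND6* peak between the 57.0th and the 83.4th. The median percentile of *ND3* exceeded that of *ND6* by 30.3 ± 8.76 (SD, n = 6 lists, higher in 6 of 6, p = 0.03125 in an exact sign-flip test, two-sided, and adjusted p = 0.0469 over 6 comparisons). That of *ND2* exceeded *ND6* by 30.0 ± 8.36 (SD, n = 6, higher in 6 of 6, p = 0.03125 in an exact sign-flip test, two-sided, and adjusted p = 0.0469). *ND3* and *ND2* were not separated (0.327 ± 0.782, SD, n = 6, *ND3* higher in 4 of 6, p = 0.406 in an exact sign-flip test, two-sided, and adjusted p = 0.487), and without the third 2 h list the difference was 0.0679.

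Each peak had its own rank. The scores of the *ND3* 3' peak were 539, 722 and 563 in the 2 h lists and 952, 822 and infinite in those of 24 h. Those of the *ND3* 5' peak were 368, 403 and 284 at 2 h and 600, 613 and 734 at 24 h, below the 3' peak of the same list in 6 of 6 lists. The shorter of the *ND3* peaks thus had the higher score in every list. On *ND2* the 3' peak had scores of 438, 555 and 331 at 2 h and 821, 682 and 695 at 24 h. The 5' peak had 380.2, 367 and 224 at 2 h, and an infinite score, 795 and an infinite score at 24 h. The order of the *ND2* peaks differed by time: the 3' peak scored higher in all 3 lists of 2 h and the 5' peak in all 3 lists of 24 h. The *ND6* peak, the longest on the 3 genes after the 3' peak of *ND2*, had scores of 37.3, 31.6 and 29.7 at 2 h and 47.2, 79.2 and 36.1 at 24 h.

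Percentiles were higher in every 24 h list than in every 2 h list for all 5 peaks. The median percentile of *ND2* was 95.5 ± 0.377 at 2 h and 98.7 ± 0.331 at 24 h, and that of *ND3* was 96.4 ± 0.528 and 98.4 ± 0.346 (SD, n = 3 lists per time, p = 0.1 in a two-sided exact permutation test and adjusted p = 0.186 over the 13 genes for both). For *ND6* the values were 61.2, 57.0 and 62.7 at 2 h and 72.3, 83.4 and 66.0 at 24 h, with a difference of 13.6 (exact two-sided permutation p = 0.1, adjusted p = 0.186). None passed the test, which cannot go below 0.1. Of the 13 coding genes 53.8% (7) had 24 h percentiles that were all above those of 2 h, among them *ND1*, *ND4L* and *ND5* of the minus strand, so the pattern was not confined to the 3 genes. For *ATP6* and some others of the 13 the median peak had an infinite score in every list, so those genes could not rise further in rank. *CYTB* is among the 7, but its median was the percentile shared by all infinite scores in every list except the third of 2 h. The 24 h lists were all longer than those of 2 h, and with each list cut to its strongest 51157 peaks the *ND6* percentiles of the times overlapped (difference 12.3, exact two-sided permutation p = 0.2), while those of *ND2* and *ND3* still did not. In number of peaks with a higher score, the *ND3* 5' peak stood behind 2761, 2529 and 2294 peaks at 2 h and behind 1224, 1204 and 978 at 24 h. The *ND6* peak stood behind 20716, 23707 and 19072 at 2 h and behind 15779, 9644 and 19267 at 24 h, so by this count the third list of 24 h lay inside the range of 2 h.

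**Figure D3:**
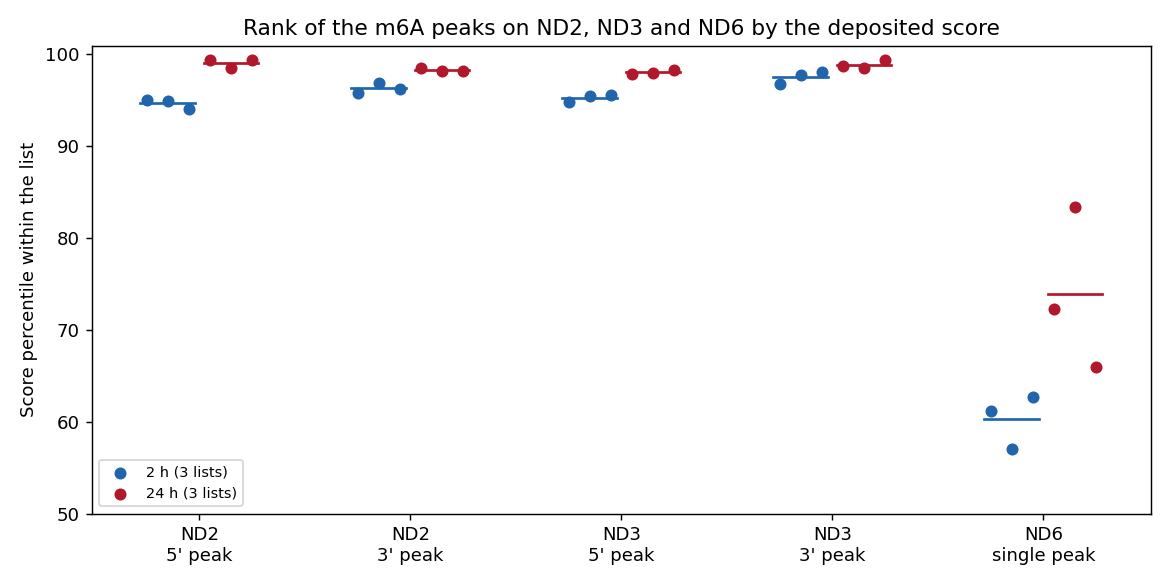
Percentile of the deposited score within the list (vertical axis, which starts at 50) for the 5 peaks on *ND2*, *ND3* and *ND6*, with points for the 3 lists of 2 h (blue) and of 24 h (red) and a line for each mean. The *ND6* peak stood between 57.0 and 83.4 and every other peak at 94.1 or above, and in all 5 peaks the points of 24 h lay above those of 2 h.

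The narrower *ND3* 5' peak of the 24 h lists was also the higher ranked. It covered 150 bases at percentiles of 97.8, 97.9 and 98.3 at 24 h, against 200, 200 and 175 bases at 94.8, 95.4 and 95.5 at 2 h. In the other 4 peaks the lengths of the times overlapped. The *ND2* 5' peak had a mean length of 333 ± 14.4 bases at both times (SD, n = 3 lists per time, p = 1 in a two-sided exact permutation test), with percentiles of 94.7 ± 0.512 at 2 h and 99.1 ± 0.547 at 24 h. The *ND2* 3' peak averaged 591.7 ± 14.4 bases at 2 h and 575 ± 0 at 24 h (SD, n = 3 lists per time, p = 0.4 in a two-sided exact permutation test).

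The score of the next peak across the gene border differed most at *ND6* and at the 5' side of *ND3*. *CYTB*, which encodes cytochrome b, follows *ND6*, and its first peak began 9 bases after the end of the *ND6* peak in every list. That *CYTB* peak had an infinite score in 6 of 6 lists, at percentiles from 99.3 to 99.5, beside 57.0 to 83.4 for *ND6*. *ND3* follows *COX3*, a cytochrome c oxidase subunit gene, across a tRNA gene. The last *COX3* peak stood at percentiles from 57.5 to 63.8, and the *ND3* 5' peak, 67 to 117 bases further on, at 94.8 to 98.3. The span between them was 67, 67 and 92 bases at 2 h and 117 bases in each list of 24 h. Past *ND2*, across several tRNA genes, the first peak of *COX1* began 213 bases after the *ND2* 3' peak in every list and had an infinite score in 6 of 6. The step there was small: the *ND2* 3' peak stood at percentiles from 95.8 to 96.9 at 2 h and from 98.2 to 98.5 at 24 h, and the *COX1* peak at 99.3 to 99.5. The first peaks of *COX1* and *CYTB* began at base 1 of their genes in every list, and the last *COX3* peak ended at the last base of *COX3*. The spans of 213 and 9 bases thus run from the last full step of *ND2* and *ND6* to a gene border. Those before *ND3* restate the start of its 5' peak. No base of any mitochondrial peak lay outside the 13 coding genes, and whether peaks were called outside them at all is not known.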

How the data were processed

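The lists of 6 captured embryo RNA samples were used as deposited, 1 list per sample, each giving a peak's sequence, position, strand and score. The score comes from the authors and its scale is not known, so it served only for ranks within a list, where ties, infinite values included, shared the mean rank. The submitters' processing notes name HISAT2 2.1.0, Bowtie2 2.2.5, fastp 0.20.0 and HOMER, without roles. Peak caller, threshold and build were not given in the sources used here, while a genome sequence was not at hand. Per the labels' protocols, oligo(dT) beads selected the RNA, which was then fragmented, and the kit is not described as marking strand.

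Gene names and positions came from the RefSeq gene table of the species, whose assembly (GCF_023101765.2) is not that of the nuclear sequences in the lists. The 25-base steps from the gene starts were the check that its mitochondrial positions fit the lists. A peak was assigned to a gene on its own strand when it overlapped by at least 1 base. Coverage was the share of the gene under at least 1 peak. Lists of 2 h and 24 h were set against each other, 3 against 3, in two-sided exact permutation tests, and genes with exact sign-flip tests over 6 lists, adjusted by Benjamini-Hochberg. The functions were tested on simulated lists. *ND2*, *ND3* and *ND6* are always named, other mitochondrial genes only as strand neighbours, complex I genes or the gene most like a member. The members, lists and tests were chosen with earlier results of these data known. The alternatives were the stronger 50% of each list (stronger meaning only a higher score), equal list length, each list left out, a replicate block and peak midpoints. The length of the *ND3* 5' peak and the order of the *ND2* peaks were chosen for these alternatives after the data were seen. Python 3.11.15, numpy 2.4.6, pandas 2.3.3 and matplotlib 3.10.9 were used.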

Additional observations from a re-analysis of the deposited data

Results flagged for a closer look

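The score order of the *ND2* peaks was opposite at the 2 times in every list. The percentile of the 5' peak minus that of the 3' peak was -1.62 ± 0.777 at 2 h (SD, n = 3, from -2.16 to -0.732) and 0.804 ± 0.471 at 24 h (SD, n = 3, from 0.288 to 1.21). The difference between the times was 2.43 percentile points (exact two-sided permutation p = 0.1, the smallest that 3 lists against 3 can give), and from 2.16 to 2.87 with a list left out. In 2 of the 3 lists of 24 h the 5' peak had an infinite score, which ties with all other infinite scores of the list. The peaks of *ND3* kept their order, with a difference of -2.26 ± 0.323 for the 2 h lists and -0.856 ± 0.278 for the 24 h lists (SD, n = 3 each). This difference moved the same way as in *ND2*, by 1.40 percentile points, and the times did not overlap (exact two-sided permutation p = 0.1). In percentile the 5' peak thus moved up relative to the 3' peak in both genes. Percentiles so near the top of a list leave little room for a difference, however. In the third 24 h list the *ND3* 3' peak had an infinite score, while its 5' peak had a score of 734. Whether the scores of the *ND3* peaks drew closer was not tested.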

How the results depend on the processing

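With the stronger 50% of each list, with lists of equal length and with peak midpoints inside the gene, the coverage of *ND2*, *ND3* and *ND6*, alone and together, was the same (12 of 12 values): all their peaks were among the stronger 50% of their list, and none reached outside its gene. Percentiles taken within the stronger 50% spread over a list cut to 50% of its length, which by construction widens their differences: 24 h minus 2 h was 6.41 for *ND2*, 4.13 for *ND3* and 27.2 for *ND6*, and the differences between genes were 60.6 (*ND3* minus *ND6*), 60.0 (*ND2* minus *ND6*) and 0.654 (*ND3* minus *ND2*), on the same side of the threshold as in the whole lists. Leaving out each list in turn gave 24 h minus 2 h differences in coverage of -2.48 to -1.24 points for *ND2*, -16.6 to -11.8 for *ND3*, -5.49 to 1.57 for *ND6* and -5.51 to -2.86 for the 3 together, and in median score percentile of 3.04 to 3.41, 1.77 to 2.27 and 8.83 to 17.5. In the comparisons between genes, leaving out a list allows no p below 0.0625, so none could pass. The differences were then -23.9 to -19.7 (*ND3* minus *ND2*), -25.0 to -20.3 (*ND3* minus *ND6*) and -2.54 to 0.288 (*ND2* minus *ND6*) in coverage, and 28.5 to 33.4 (*ND3* minus *ND6*), 28.2 to 33.0 (*ND2* minus *ND6*) and 0.0679 to 0.527 (*ND3* minus *ND2*) in percentile. The number of the 13 genes separated by time in coverage, 2, was 2 to 6 with a list left out. It was 6 only without the first 2 h list, which was also the only omission that separated the joint coverage of the 3 genes by time (-5.51 points). Fewer lists are easier to separate, and what set the number was not tested. With the replicate block the number was 5, counted as genes in which all 3 pairs moved one way. The replicate numbers were not shown to pair the samples: deviations of same-numbered lists correlated at 0.0402, -0.403 and 0.322 over the 13 genes. With the block the *ND3* difference in coverage stayed at -14.2 points, with an exact p of 0.25, the smallest that 3 pairs can give. The 25-base step and the unknown depth limit what these lists can show.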
